A study of Mus musculus with 24 samples.

Results

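The class I and class II histone deacetylases are zinc-dependent enzymes that take acetyl groups off lysines of histones and other proteins, the reaction opposite to that of the acetyltransferase CBP. The members are the genes of the count table whose Ensembl gene is one of Hdac1 to Hdac10, which gave 10 of the 55471 genes in the table. Class I holds 4 of them (Hdac1, Hdac2, Hdac3 and Hdac8), class IIa holds 4 (Hdac4, Hdac5, Hdac7 and Hdac9) and class IIb holds 2 (Hdac6 and Hdac10). All 10 passed the filter on low counts in every comparison.

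Class I enzymes are mostly nuclear and act as the catalytic subunits of corepressor complexes. Class IIa enzymes have little catalytic activity of their own, bind MEF2 transcription factors, and leave the nucleus when calcium-dependent kinases phosphorylate them and 14-3-3 proteins hold them in the cytoplasm. Class IIb enzymes work largely in the cytoplasm, and in the hippocampus HDAC2 and HDAC3 are known to restrain memory formation while the class IIa enzymes follow neuronal activity.

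Total RNA was sequenced from the hippocampi of 12 female C57BL/6J mice aged 3 to 6 months, each mouse separately and 3 in each of 4 groups. CBP-ifKOs carried floxed Crebbp alleles and the CaMKIIα-creERT2 driver, which acts in excitatory neurons of the forebrain, so other cell types of the tissue keep an intact gene. Controls were littermates without creERT2, and both genotypes had received tamoxifen in corn oil by the intragastric route. Mice of each genotype lived in a standard cage (SC) or in environmental enrichment (EE). Library totals were 26874015 to 27971488 counts in the 6 control libraries and 28582210 to 37448388 in the 6 CBP-ifKO libraries. Every nonzero count of the CBP-ifKO libraries was even (0 odd of 148570), whereas 86334 of 158233 nonzero counts of the control libraries were odd. What made these counts even was not tested. Even counts went with genotype in all 12 libraries, so a difference in how the libraries were handled cannot be told apart from genotype. A read entered 2 times gives even counts, and in that case the raw CBP-ifKO counts and totals given here would be 0.5 as large. The tests were therefore repeated with CBP-ifKO counts divided by 2 (totals 14291105 to 18724194), and again with all libraries then thinned to the smallest total. Both gave 6 of 10 members for genotype averaged over housing, beside 3055 genes when halved and 2677 when thinned as well. The deposited counts gave 6 members and 3082 genes. Dividing by 2 leaves the proportions within a library as they were, so these repeats bear only on the precision of the counts. Levels below are CPM, counts scaled to one common library size after TMM adjustment, and mice are given in the order 1, 2 and 3.

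The deleted gene was read first in each library. Crebbp stood at 73.9, 81.9 and 70.7 CPM in control SC mice, 50.5, 51.5 and 50.0 in CBP-ifKO SC mice, 72.3, 77.1 and 69.6 in control EE mice and 44.5, 48.3 and 46.7 in CBP-ifKO EE mice. All 6 CBP-ifKO libraries lay below all 6 control libraries, as their labels require. Over both housings Crebbp fell by 34.6% (log2 fold change -0.61, SE 0.045, adjusted p = 3.38e-07 in edgeR). The counts cover the whole gene, and the authors describe a truncated CBP protein in CBP-ifKOs. Which cells and which parts of the transcript make up the remaining level was not tested. In these bulk samples fewer cells of a type and less RNA per cell cannot be told apart, for Crebbp and for every gene below. Its paralog Ep300 had a log2 fold change of 0.12 (95% interval -0.071 to 0.32, adjusted p = 0.408), which ran from 0.060 to 0.21 over 19 alternatives. It stood at 83.6 CPM in control SC mouse 2 against 55.8 and 64.3 in control SC mice 1 and 3, and at 85.3 CPM in control EE mouse 2 against 61.8 and 64.9 in control EE mice 1 and 3. Without control SC mouse 2, Ep300 was called higher in SC (log2 fold change 0.36, adjusted p = 0.00593), against 0.18 and 0.394 with all 6 mice.

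Levels of different members were compared as CPM per kb of exon, the length being that of the deposited table. In control SC mice the order by mean CPM per kb was Hdac3 (27.8 ± 1.59, SD, n = 3), Hdac2 (22.8 ± 1.07), Hdac5 (17.8 ± 0.627), Hdac6 (11.2 ± 0.0475), Hdac7 (7.22 ± 0.718), Hdac10 (5.69 ± 0.665), Hdac4 (3.68 ± 0.325), Hdac8 (3.56 ± 0.200), Hdac9 (3.33 ± 0.274) and Hdac1 (2.20 ± 0.606). Neighbours in this order did not overlap in CPM per kb between mice, except Hdac4 with Hdac8 and Hdac8 with Hdac9. Hdac3, Hdac2, Hdac5 and Hdac6 held the first 4 positions in all 4 groups. Class I genes made up 53.5% ± 1.06 (SD, n = 3) of the family's summed CPM per kb in control SC mice and 56.1% ± 1.10 in CBP-ifKO SC mice. For class IIa the shares of summed CPM per kb were 30.4% ± 0.524 and 25.9% ± 0.705, and for class IIb 16.0% ± 0.601 and 17.9% ± 0.513. In EE the class IIa share was 31.1% ± 0.446 in control mice and 26.1% ± 0.500 in CBP-ifKOs. Class I shares in EE were 53.1% in control mice and 56.7% in CBP-ifKOs, and class IIb shares 15.8% and 17.2%. The class IIa share in every CBP-ifKO lay below that in every control, with highest and lowest values of 26.7% and 30.1%. For class I and class IIb every CBP-ifKO lay above every control. The lowest CBP-ifKO and highest control shares were 54.87% and 54.39% for class I and 16.71% and 16.63% for class IIb. These shares add up to the whole family, so a lower class IIa share by itself raises the others. In summed CPM per kb, class IIb overlapped between genotypes (highest control 17.67, lowest CBP-ifKO 17.58). Class I did not (59.14 and 59.42), nor did class IIa (lowest control 31.17, highest CBP-ifKO 29.11).

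**Figure D1:**
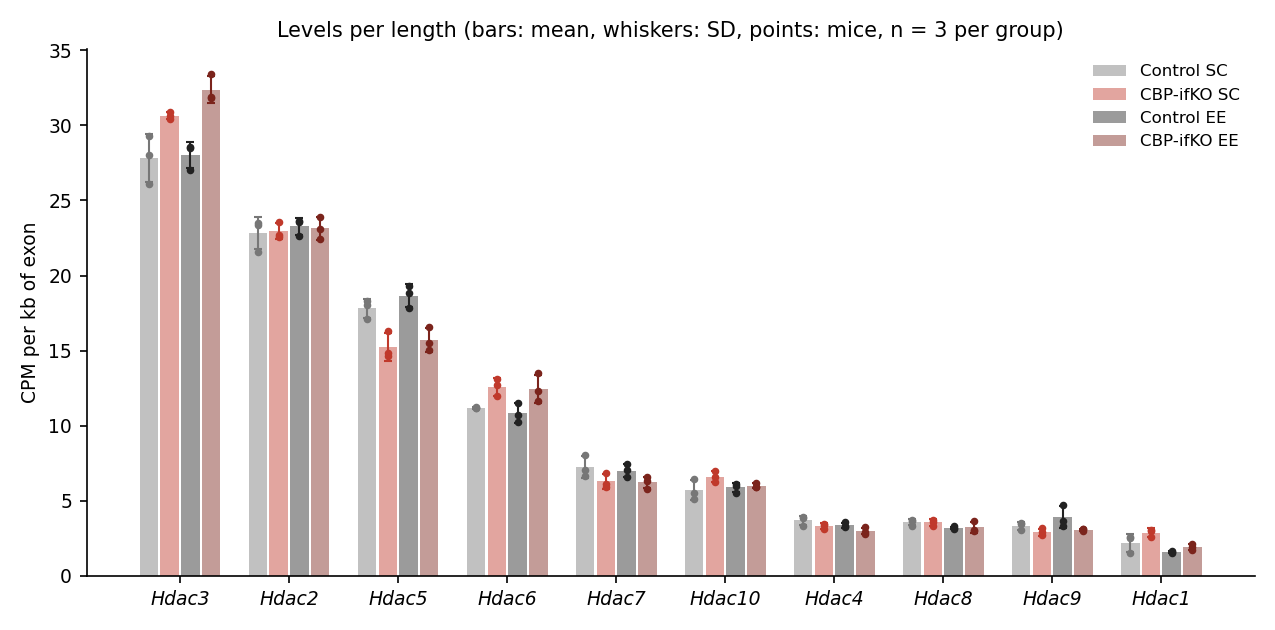
Level of each member in CPM per kb of exon (linear axis from 0) in the 4 groups, ordered by the mean of control SC mice. Bars are means, whiskers SD and points single mice (n = 3 per group), and Hdac3 is highest at 27.8 CPM per kb in control SC mice and Hdac1 lowest at 2.20.

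The first comparison asked whether the family's mRNA differs between CBP-ifKOs and controls when both housings are averaged, with 6 mice per genotype. Of the 10 members 6 passed the test at an adjusted p below 0.05, where 16.9% of the 18251 genes tested passed (3082 genes). Higher in CBP-ifKOs were 2 of the 10, Hdac3 and Hdac6, beside 6.64% of all genes, and lower were 4 of the 10, the class IIa genes Hdac4, Hdac5, Hdac7 and Hdac9, beside 10.3%. The median log2 fold change was 0.090 over class I, -0.21 over class IIa, 0.15 over class IIb and 0.0027 over all 10 members, against 0.0029 over all genes tested. Values of the genotypes did not overlap over the 12 mice for 3 of the 10 members, Hdac3, Hdac5 and Hdac6, beside 8.56% of all genes. With DESeq2's size factors in place of TMM each of these directions was the same. There 5 of the 10 members passed, without Hdac4 (adjusted p = 0.0503), beside 3087 of all genes. The DESeq2 test called 7 of the 10 beside 3346 genes, and edgeR with no filter on low counts 7 beside 3365. Hdac1 was the further member in both. With 1 mouse left out the count ran from 3 to 6. It was 3 without CBP-ifKO SC mouse 2 (beside 2519 genes) and 6 without control SC mouse 1 (beside 2550). In that last fit Hdac1 was called (adjusted p = 0.0379 in edgeR) and Hdac7 was not (0.0963). Among fits with 1 mouse left out, Hdac4 kept its call only without control SC mouse 1 or CBP-ifKO EE mouse 2. Hdac7 lost its call in both (0.0963 and 0.0581), so no such fit called all 4 class IIa genes. An exact permutation test of the mean log2 CPM, with genotype reassigned within each housing (400 assignments, two-sided, smallest possible p = 0.005), gave exact p = 0.005 for Hdac3, Hdac5 and Hdac6, before any correction and with 10 members tested. In edgeR an unadjusted p under 0.05 was reached by 7 of the 10 members, beside 5465 of all 18251 genes.

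Within a single housing, where the mice are those of the averaged comparison, fewer members were called. In SC 1 of 10 members passed, Hdac5, beside 5.52% of 17532 genes, with 0 of 10 higher beside 1.51% and 1 of 10 lower beside 4.02%. In edgeR 7 members and 3593 of all genes had an unadjusted p under 0.05 in SC, and DESeq2 called 1 member and 1300 genes. In EE 0 of 10 members passed in edgeR, beside 4.57% of 17625 genes (1.03% higher and 3.53% lower). There 6 members and 3447 of all genes had an unadjusted p under 0.05, and DESeq2 called 1296 genes, among them 3 members, Hdac3, Hdac5 and Hdac9. The genotypes did not overlap in CPM for 3 of 10 members in SC beside 25.9% of all genes, and for 6 of 10 in EE beside 25.3%.

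**Figure D2:**
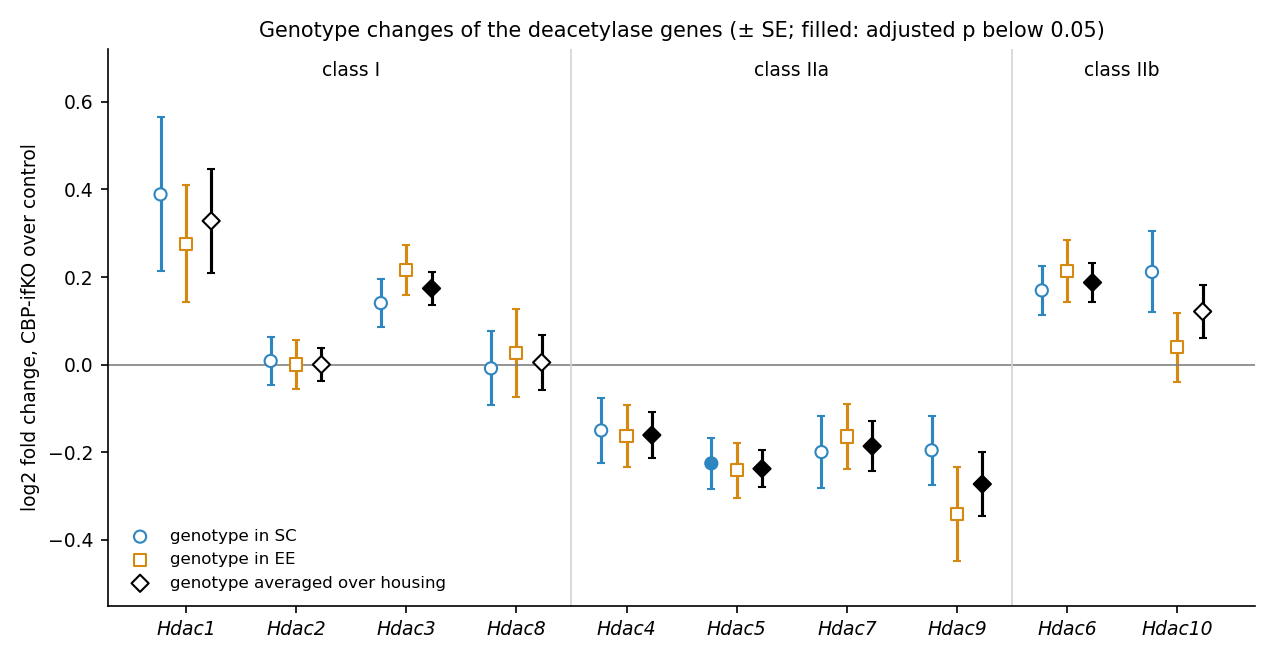
Log2 fold change of each member between CBP-ifKOs and controls (vertical axis, log2 scale) in SC, in EE and averaged over housing, with SE whiskers, and filled symbols have an adjusted p below 0.05 in edgeR. The 4 class IIa genes lie below 0 in all 3 comparisons, with log2 fold changes from -0.16 to -0.27 when averaged.

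Among class I genes, Hdac3 is the catalytic subunit of the NCoR corepressor complex. Its level was 119, 106 and 114 CPM in control SC mice, 124, 123 and 125 in CBP-ifKO SC mice, 116, 109.6 and 116 in control EE mice and 135, 129 and 129 in CBP-ifKO EE mice. The lowest CBP-ifKO lay above the highest control, so the genotypes did not overlap in either housing. Averaged over housing Hdac3 was 12.8% higher in CBP-ifKOs (log2 fold change 0.17, SE 0.038, adjusted p = 0.00482). In SC the log2 fold change was 0.14 (95% interval 0.019 to 0.26, adjusted p = 0.17) and in EE 0.22 (0.089 to 0.34, adjusted p = 0.0599), higher in 3 of 3 CBP-ifKOs than in any control of that housing. The averaged call was kept in all 19 alternatives, with adjusted p up to 0.0159.

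Hdac1 and Hdac2 are the paired catalytic subunits of the NuRD, Sin3 and CoREST complexes. Hdac1 stood at 8.98, 5.17 and 8.56 CPM in control SC mice, 10.3, 8.85 and 10.6 in CBP-ifKO SC mice, 5.25, 5.75 and 5.41 in control EE mice and 6.61, 7.25 and 5.87 in CBP-ifKO EE mice. Control SC mouse 2 sat with the EE controls, and CBP-ifKOs lay above the controls of their housing except for mouse 2 in SC, which lay between controls. The genotype difference did not pass (log2 fold change 0.33, 95% interval 0.078 to 0.58, adjusted p = 0.0697, exact permutation p = 0.01 unadjusted). It passed in 3 of 19 alternatives, which were DESeq2 (adjusted p = 0.0419), no filter on low counts (0.0255) and the fit without control SC mouse 1 (0.0379). Hdac1 has the lowest counts of the family, 137 to 400 per library, and 35.5% of its 50-base stretches also occur in another gene, mostly in the processed pseudogene Gm10093, which had 1 to 8 counts per library. The processed pseudogenes AC125456.1 (4.84% of stretches, 8 to 46 counts) and Gm4864 (4.41%, 8 to 66 counts) share sequence with it as well. Only reads with a mapping quality above 10 had been counted, a filter that takes out reads fitting 2 genes equally, so the Hdac1 level per kb may be too low.

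Hdac2 ranged from 96.6 to 107 CPM over the 12 mice, and Hdac8, a class I enzyme known to act on cohesin, from 14.4 to 18.1 CPM. Both sets of values overlapped between genotypes. The averaged log2 fold change was 0.0003 for Hdac2 (95% interval -0.079 to 0.079) and 0.0051 for Hdac8 (-0.13 to 0.14), and their sign changed in 6 of 19 alternatives each.

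Class IIa genes were the subgroup with all 4 members called in the averaged comparison of all 12 mice, each lower in CBP-ifKOs. With any 1 mouse left out, at least 1 of the 4 was not called. Hdac5, whose protein moves between nucleus and cytoplasm with neuronal activity, stood at 161, 150.2 and 158 CPM in control SC mice, 143, 130.0 and 128 in CBP-ifKO SC mice, 166, 156 and 169 in control EE mice and 132, 145 and 136 in CBP-ifKO EE mice. All 6 CBP-ifKOs lay below all 6 controls. Hdac5 fell by 15.2% when averaged over housing (log2 fold change -0.24, SE 0.042, adjusted p = 0.00105) and was called in 19 of 19 alternatives. In SC the log2 fold change was -0.23 (SE 0.058, adjusted p = 0.0442), lower in 3 of 3 CBP-ifKOs than in any control. That SC call was lost without control mouse 1 (adjusted p = 0.123), control mouse 3 (0.156), CBP-ifKO mouse 1 (0.05), CBP-ifKO mouse 2 (0.181) or CBP-ifKO mouse 3 (0.173). In EE the log2 fold change was -0.24 (95% interval -0.38 to -0.10, adjusted p = 0.0526), and Hdac5 passed there in 7 of 14 alternatives, among them the fit without control EE mouse 2 (0.0251). Hdac5 lies at chr11:102194432-102230166 on the minus strand of GRCm38, and 111 of its exon bases are shared with the microRNA gene Mir8101 on the same strand.

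Hdac9, which is known to have a splice form without the catalytic domain that still binds MEF2, stood at 51.1, 52.5 and 44.8 CPM in control SC mice, 42.9, 39.8 and 46.7 in CBP-ifKO SC mice, 54.5, 69.7 and 48.8 in control EE mice and 46.1, 43.9 and 45.7 in CBP-ifKO EE mice. The genotypes overlapped in SC, where CBP-ifKO mouse 3 lay above control mouse 3, and did not overlap in EE, where control mouse 2 stood apart at 69.7 CPM. Averaged over housing Hdac9 fell by 17.2% (log2 fold change -0.27, SE 0.074, adjusted p = 0.0182, lower than every control of the housing in 2 of 3 CBP-ifKOs in SC and 3 of 3 in EE). The call was lost in 1 of 19 alternatives, without CBP-ifKO SC mouse 2 (adjusted p = 0.0528). In EE the log2 fold change was -0.34 (95% interval -0.58 to -0.11, adjusted p = 0.101), and DESeq2 called it there (adjusted p = 0.02), as did edgeR with no filter on low counts (0.000147). Over the 14 alternatives in EE the log2 fold change ran from -0.44 to -0.19, the weakest being the fit without control EE mouse 2, where it was not called. Hdac9 spans chr12:34047580-34917095 on the minus strand.

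Hdac7, known for its part in blood vessels and thymocytes, stood at 54.2, 44.7 and 47.6 CPM in control SC mice, 46.2, 41.3 and 40.0 in CBP-ifKO SC mice, 50.3, 47.4 and 44.2 in control EE mice and 44.3, 42.5 and 39.0 in CBP-ifKO EE mice. In each housing 1 CBP-ifKO (mouse 1) reached into the range of the controls and the other 2 lay below it. The averaged difference was a fall of 12.1% (log2 fold change -0.19, SE 0.057, adjusted p = 0.0361). The call was lost in 7 of 19 alternatives, with adjusted p from 0.0581 to 0.0963, each a fit without 1 mouse: control SC mouse 1 or 3, CBP-ifKO SC mouse 2 or 3, control EE mouse 1, or CBP-ifKO EE mouse 2 or 3. Hdac7 lies at chr15:97792664-97844502 on the minus strand and shares 29 exon bases with Slc48a1 on the opposite strand.

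Hdac4, which represses MEF2 target genes and accumulates in the nucleus of silenced neurons, stood at 52.3, 61.9 and 60.3 CPM in control SC mice, 48.9, 53.8 and 54.6 in CBP-ifKO SC mice, 51.9, 56.1 and 51.3 in control EE mice and 46.4, 50.9 and 44.1 in CBP-ifKO EE mice. In SC 1 of 3 CBP-ifKOs lay below every control, and in EE 3 of 3 did. Averaged over housing Hdac4 fell by 10.5% (log2 fold change -0.16, SE 0.053, adjusted p = 0.0492). This value is close to the threshold, and 12 of 19 alternatives lost the call. Leaving out any 1 mouse other than control SC mouse 1 or CBP-ifKO EE mouse 2 gave an adjusted p from 0.059 to 0.124, DESeq2's size factors gave 0.0503 and a filter of 1 CPM in 3 mice gave 0.0533. Of the 50-base stretches of Hdac4, 21.6% are shared with Gm26720, a noncoding gene on the opposite strand with 3536 exon bases in common. The strand setting of the counting is not given in the sources used here, so reads of the pair may not have been told apart. Hdac4 lies at chr1:91928779-92195699 on the minus strand.

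In class IIb, Hdac6 is a mainly cytoplasmic enzyme that deacetylates tubulin. It stood at 65.4, 65.0 and 64.8 CPM in control SC mice, 76.3, 69.4 and 73.7 in CBP-ifKO SC mice, 62.5, 67.0 and 59.4 in control EE mice and 71.5, 78.4 and 67.7 in CBP-ifKO EE mice. Every CBP-ifKO lay above every control, the closest pair being 67.7 CPM in CBP-ifKO EE mouse 3 and 67.0 CPM in control EE mouse 2. Hdac6 was 13.9% higher when averaged over housing (log2 fold change 0.19, SE 0.046, adjusted p = 0.00989) and was called in 19 of 19 alternatives, with adjusted p up to 0.0305. In SC its log2 fold change was 0.17 (95% interval 0.048 to 0.29, adjusted p = 0.103) and in EE 0.21 (0.059 to 0.37, adjusted p = 0.117). Hdac6 lies on the X chromosome at chrX:7930120-7947889, minus strand. Hdac10, known to prefer acetylated polyamines as substrates, ranged from 17.4 to 23.5 CPM and overlapped between genotypes (averaged log2 fold change 0.12, 95% interval -0.0055 to 0.25, adjusted p = 0.187).

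**Figure D3:**
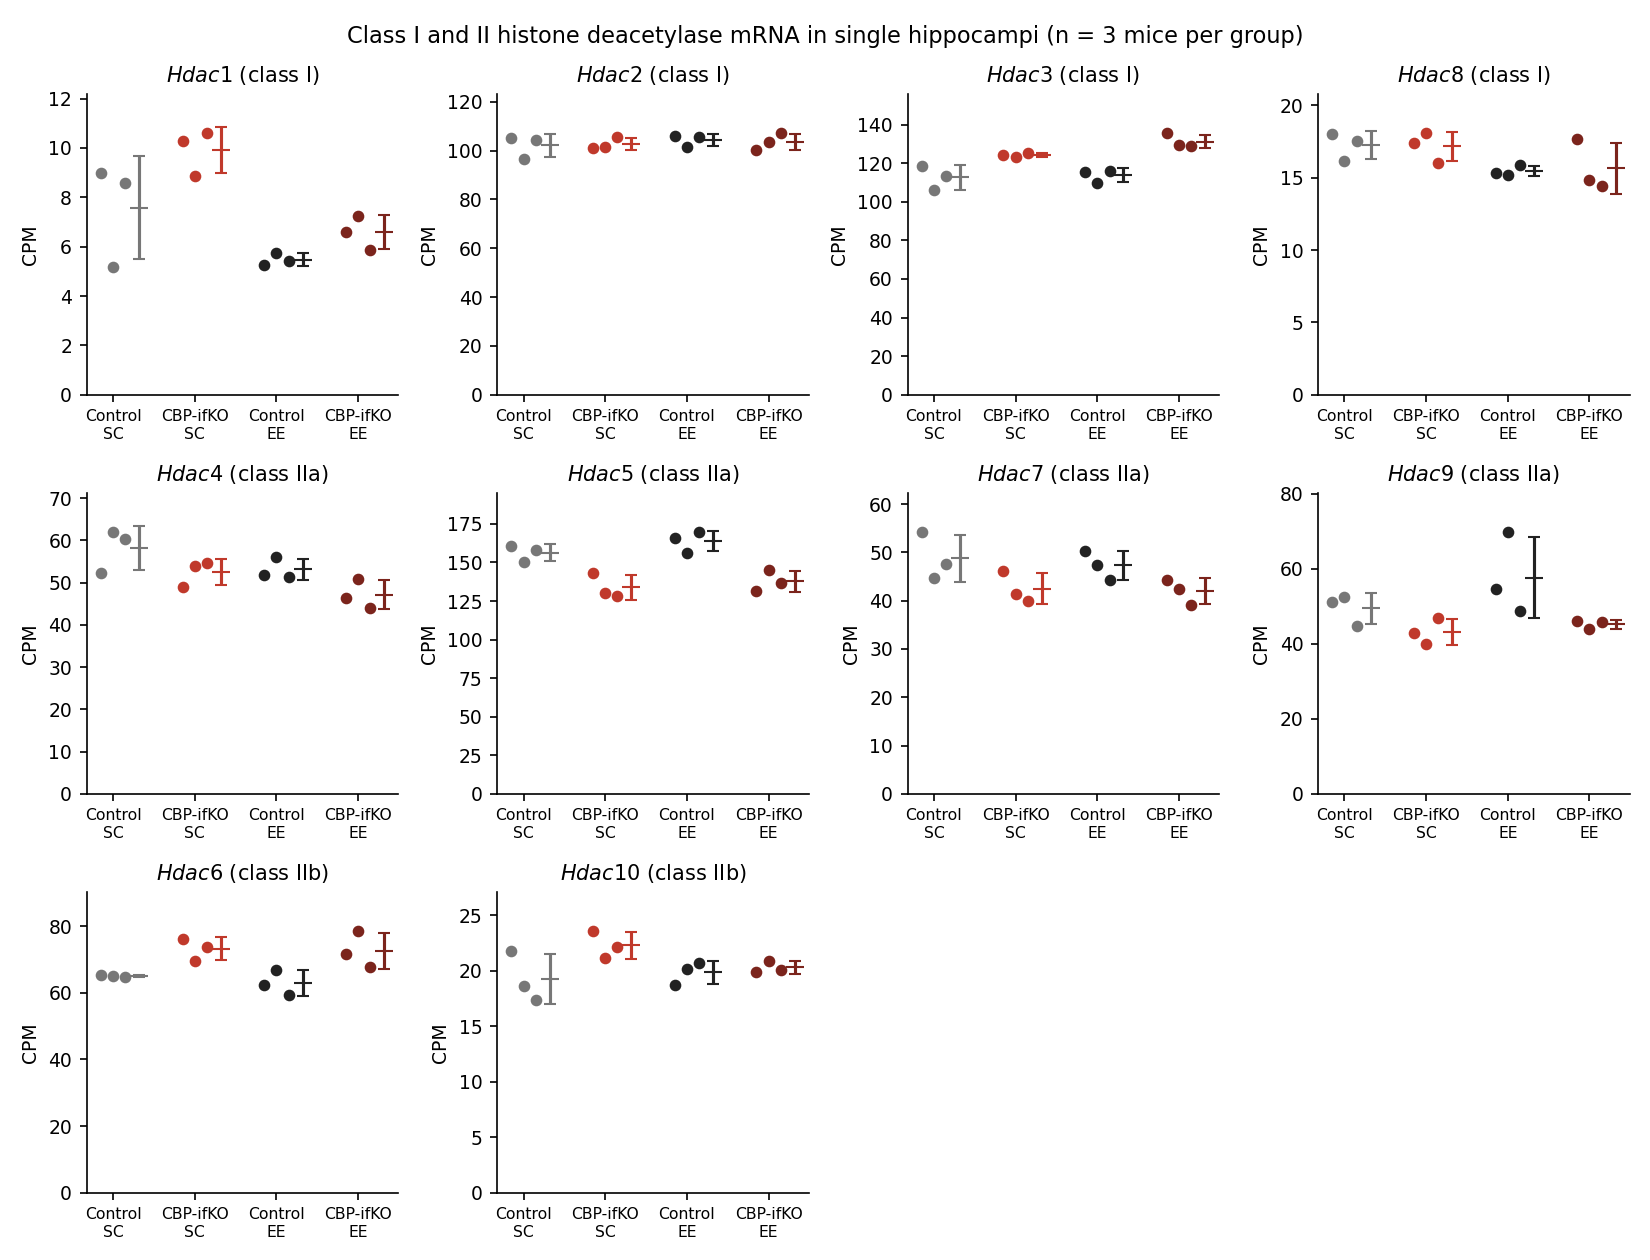
CPM of each member in each mouse by group (linear axis from 0), where points are mice, and the bar beside them is mean ± SD (n = 3). Hdac3 and Hdac6 are higher and Hdac5 is lower in all 6 CBP-ifKOs than in any control, while Hdac1 in control SC mouse 2 lies at 5.17 CPM, beside the EE controls.

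Housing was compared next, to ask whether EE changes the family's mRNA in either genotype. In controls 0 of 10 members passed in edgeR, beside 0% of 18251 genes, and in CBP-ifKOs 0 of 10 passed, beside 0.011% (2 genes). Averaged over genotype 0 of 10 members passed, beside 0.164% (30 genes). At an unadjusted p under 0.05 the counts were 1, 1 and 3 members in that order, beside 768, 1567 and 1723 of all 18251 genes, and DESeq2 called 0, 0 and 1 members and 15, 50 and 152 of all genes. The interaction of genotype and housing called 0 of 10 members beside 0% of all genes, with 0 members at an unadjusted p under 0.05 and 0 by DESeq2. At an unadjusted p under 0.05 there were 574 genes for the interaction. Every member had an interaction adjusted p of 1. For Hdac9 its log2 value was -0.15 (95% interval -0.47 to 0.16, and -0.26 to 0.0043 over 19 alternatives) and for Hdac10 -0.18 (-0.44 to 0.073, and -0.28 to -0.11), so no genotype difference was shown to depend on housing.

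Hdac1 was the member with the lowest p for housing. Its mean was 8.74 CPM over the 6 SC mice and 6.02 over the 6 EE mice (log2 fold change -0.53, 95% interval -0.78 to -0.28, adjusted p = 0.125). EE mice had lower Hdac1 than every SC mouse in CBP-ifKOs, whereas in controls SC mouse 2, at 5.17 CPM, lay below all 3 EE mice. Without control SC mouse 2 the averaged housing difference passed (log2 fold change -0.64, adjusted p = 0.00919), and it passed with DESeq2 (0.00485) and with no filter on low counts (8.75e-05). In CBP-ifKOs alone the log2 fold change was -0.59 (adjusted p = 0.373, and 0.00708 with no filter), and in controls -0.47 (adjusted p = 0.999). For Hdac4 and Hdac8, the other 2 members with an unadjusted p under 0.05 in the averaged comparison, the log2 fold changes were -0.14 (95% interval -0.25 to -0.029, adjusted p = 0.404) and -0.14 (-0.28 to -0.0098, adjusted p = 0.491).

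The deacetylases outside classes I and II were read for comparison. These are the 7 NAD-dependent sirtuins of class III and Hdac11, the sole class IV enzyme. Of the 8, 3 rose and 1 fell averaged over housing, beside 6.64% and 10.3% of all genes, each called in 19 of 19 alternatives. Sirt1, a nuclear sirtuin, stood at 22.2 to 26.7 CPM in the 6 controls and 28.3 to 32.4 CPM in the 6 CBP-ifKOs, with no overlap (log2 fold change 0.35, SE 0.057, adjusted p = 0.000528). Sirt4, a mitochondrial sirtuin, and Sirt7, a nucleolar one, had log2 fold changes of 0.21 (adjusted p = 0.00758) and 0.17 (adjusted p = 0.00989). Hdac11 stood at 132 to 148 CPM in controls and 117 to 127 CPM in CBP-ifKOs, again with no overlap, and fell by 13.3% (log2 fold change -0.21, SE 0.040, adjusted p = 0.00221).

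Partners of the class I enzymes were read from the lists of corepressor subunits, averaged over housing, where 6.64% of all genes were higher and 10.3% lower. Of 12 NuRD genes 1 rose, the scaffold gene Gatad2a (log2 fold change 0.24, adjusted p = 0.00187), and 2 fell, the remodeler Chd3 (-0.18, 0.00334) and the histone-binding subunit Rbbp7 (-0.16, 0.00615). Of 9 CoREST genes 1 fell, the scaffold Rcor2, from 11.6 to 16.6 CPM in controls to 8.16 to 10.7 CPM in CBP-ifKOs (log2 fold change -0.58, SE 0.102, adjusted p = 0.00101). In the NCoR complex Tbl1xr1, a WD-repeat subunit, fell (-0.29, adjusted p = 0.000266). Tbl1xr1 ranged from 109 to 129 CPM in controls and from 94.3 to 98.7 CPM in CBP-ifKOs, so the genotypes did not overlap. These calls were kept in 19 of 19 alternatives. Of 13 Sin3 genes 0 passed in edgeR, with 3 at an unadjusted p under 0.05 and 1 by DESeq2, and 0 of the 3 MiDAC genes measured passed, with 1 at an unadjusted p under 0.05 and 0 by DESeq2. Their smallest p belonged to Arid4b (log2 fold change 0.17, 95% interval 0.038 to 0.30, adjusted p = 0.0747) and Trerf1 (-0.125, -0.24 to -0.010, adjusted p = 0.13, and -0.16 to -0.080 over 19 alternatives). Arid4b passed in 5 of 19 alternatives, which were DESeq2 (adjusted p = 0.0419), no filter (0.0205), the replicate block (0.0204), and the fits without control SC mouse 2 (0.0193) or control EE mouse 2 (0.00696).

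Genes that act on class IIa enzymes were read from lists of their kinases, of 14-3-3 proteins and of MEF2 factors. Of 16 kinase genes 4 fell and 1 rose, beside 10.3% and 6.64% of all genes. Camk1g, a calcium and calmodulin dependent kinase, stood at 34.1 to 41.1 CPM in controls and 17.2 to 22.0 CPM in CBP-ifKOs. Its ranges were far apart, and the log2 fold change of -0.84 (SE 0.056, adjusted p = 1.3e-07) was called in all alternatives, in each housing and averaged. Camk1d (-0.39, adjusted p = 0.00207), Camk4 (-0.38, 0.00185) and Camk2b (-0.15, 0.00687) also fell, and Camk2d rose (0.39, 0.00725), each kept in 19 of 19 alternatives. Mef2d, the MEF2 factor called of 3 tested, stood at 207 to 234 CPM in controls and 146 to 188 CPM in CBP-ifKOs without overlap (log2 fold change -0.39, SE 0.048, adjusted p = 5.35e-05).

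All 7 genes of 14-3-3 proteins, which bind phosphorylated class IIa enzymes, had averaged log2 fold changes below 0 (median -0.13 against 0.0029 over all genes), and 4 of the 7 fell, beside 10.3% of all genes. Ywhab (-0.20, adjusted p = 0.00048) and Ywhag (-0.12, adjusted p = 0.0141) were called in 19 of 19 alternatives. Ywhaq (-0.27, adjusted p = 0.0224) lost its call without control SC mouse 3, CBP-ifKO SC mouse 1, control EE mouse 1, control EE mouse 3 or CBP-ifKO EE mouse 2, with adjusted p from 0.0514 to 0.0625. Ywhaz (-0.13, adjusted p = 0.0416) lost its call without any 1 mouse other than control SC mouse 2, control EE mouse 2 or CBP-ifKO EE mouse 3, with adjusted p from 0.0686 to 0.119.

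**Figure D4:**
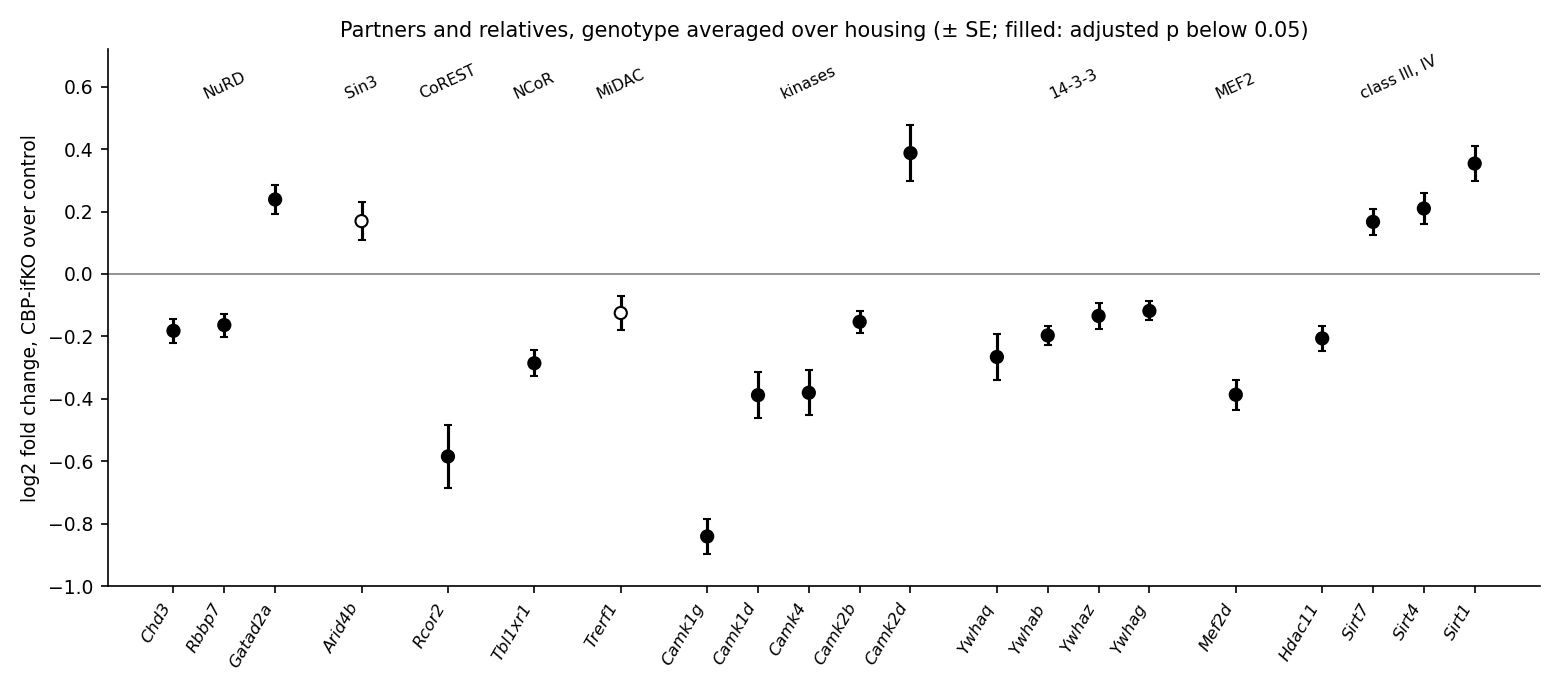
Log2 fold change (vertical axis, log2 scale, SE whiskers) between CBP-ifKOs and controls averaged over housing for the partner and relative genes named in the text, where filled points have an adjusted p below 0.05 in edgeR. Camk1g is lowest at -0.84, and the open points Arid4b and Trerf1 are the genes with the smallest p of lists without a call.

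Markers of the cell types of the hippocampus were read beside these values, and their part in the members' differences was not tested. In the averaged comparison that the marker counts refer to, 10.3% of all genes were lower and 6.64% higher. Summed excitatory neuron markers, with Camk2a the most abundant, stood at 6253 to 6982 CPM in controls and 5709.8 to 6539.8 CPM in CBP-ifKOs, and 2 of 5 fell, Nrgn (log2 fold change -0.52, adjusted p = 7.52e-06) and Neurod6 (-0.17, adjusted p = 0.0129). The creERT2 driver, carried by CBP-ifKOs only, was built from a large stretch of DNA around Camk2a, and whether it adds to the Camk2a counts in this sum was not tested. The 3 markers of oligodendrocyte precursors all fell averaged over housing (Pdgfra -0.26, Cspg4 -0.33, Olig2 -0.37). Their summed level, led by Pdgfra, was 102, 112 and 104 CPM in control SC mice, 82.9, 73.0 and 82.3 in CBP-ifKO SC mice, 101, 100.5 and 97.7 in control EE mice and 95.6, 84.7 and 83.8 in CBP-ifKO EE mice, so all 6 CBP-ifKOs lay below all 6 controls. Mature oligodendrocyte markers, led by Mbp, summed to 3317 to 4723 CPM in controls and 3533 to 4400.4 CPM in CBP-ifKOs, and 0 of 5 passed in edgeR, with 0 at an unadjusted p under 0.05 and 0 by DESeq2 (smallest p for Mog, log2 fold change 0.094, 95% interval -0.097 to 0.29, and 0.045 to 0.17 over 19 alternatives).

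GABAergic markers, led by Gad1, summed to 851 to 946 CPM in controls and 795 to 855 CPM in CBP-ifKOs, with Sst lower (-0.33, adjusted p = 0.00322) and Vip higher (0.21, adjusted p = 0.0362) of 6. Astrocyte markers, led by Slc1a3, summed to 1445 to 1653 CPM in controls and 1292 to 1446 CPM in CBP-ifKOs, and 1 of 5 fell, Slc1a3 (-0.21, adjusted p = 0.0173). Microglia markers, led by Csf1r, summed to 239 to 265 CPM and 224 to 251 CPM, and 2 of 5 fell, Cx3cr1 (-0.17, adjusted p = 0.017) and Csf1r (-0.12, adjusted p = 0.0356). Within each housing all 3 CBP-ifKOs lay below all 3 controls in each of these 3 sums, and the ranges over both housings overlapped. Endothelial markers, led by Flt1, summed to 126 to 151 CPM in controls and 117 to 136 CPM in CBP-ifKOs (Kdr lower, -0.31, adjusted p = 0.0064, 1 of 4), and pericyte and meningeal markers, led by Rgs5, to 222 to 288 CPM and 189 to 259 CPM (Rgs5 lower, -0.20, adjusted p = 0.00952, 1 of 4). Of the same list Col1a1 was called higher in EE, at 5.62, 4.17 and 5.77 CPM in controls and 10.1, 7.09 and 8.22 in CBP-ifKOs (log2 fold change 0.72, adjusted p = 0.0393). In SC it was not called (-0.23, 95% interval -0.86 to 0.40), and its interaction had an adjusted p of 1. That call was kept in 8 of 14 alternatives and lost in the fit of all 12 mice (adjusted p = 0.143), with halved and thinned counts (0.0518), and without control EE mouse 2 (0.0815), control EE mouse 3 (0.0815), CBP-ifKO EE mouse 1 (0.124) or CBP-ifKO EE mouse 3 (0.115). Choroid plexus markers summed to 1242 CPM in control EE mouse 1 against 34.8 to 62.1 CPM in the other 11 mice, with Kl above Ttr by mean CPM in every group but control EE. Kl stood at 23.9 and 27.8 CPM on average in control and CBP-ifKO mice in SC, and Ttr was the 1 of 4 tested that was called (-2.99, adjusted p = 0.0283). No marker was at 0 in any group. In SC, a comparison without that mouse, Ttr stood at 26.0, 21.4 and 20.7 CPM in controls and 7.17, 6.02 and 7.73 in CBP-ifKOs, with no overlap (log2 fold change -1.70, adjusted p = 2.2e-05). It was called there in 13 of 14 alternatives, all but the fit of all 12 mice (adjusted p = 0.521). Averaged over housing DESeq2 gave no adjusted p for Ttr. The averaged calls of Vip, Csf1r, Cx3cr1 and Ttr were each lost without single mice, and with CBP-ifKO counts halved and all libraries thinned those of Vip (adjusted p = 0.0658) and Csf1r (0.0703) were lost, as was that of Csf1r with no filter on low counts (0.0632). For Cx3cr1 this was CBP-ifKO SC mouse 3 (adjusted p = 0.051), and for Ttr it was control EE mouse 1 (log2 fold change -0.61, adjusted p = 0.278) and any 1 of 5 CBP-ifKOs, all but EE mouse 1 (0.0565 to 0.0662). For Vip it was any 1 of 7 mice, all but control SC mouse 1, CBP-ifKO SC mice 2 and 3, control EE mouse 1 and CBP-ifKO EE mouse 2 (0.0518 to 0.0992), and for Csf1r any 1 of 9, all but CBP-ifKO SC mouse 1, control EE mouse 2 and CBP-ifKO EE mouse 2 (0.0581 to 0.0913).

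All 4 class IIa genes fell averaged over housing, so the promoters of this subgroup are shown. RefSeq's table for GRCm38.p6 held 11 promoters of 300 bases for 7 of the 10 members, and Hdac1, Hdac3 and Hdac10 had no entry. The CREB motif TGACGTCA, the DNA element of the factor that recruits CBP, was searched on both strands and occurred in 0 of the 11 promoters, against 1.79% of 32851 promoters. Its core TGACG, which lies within the longer motif, occurred in 2 of the 11, those of Hdac4 (3 times) and Hdac5 (2 times), against 20.8% of all promoters. The MEF2 core TATTTTTA lies in the promoter of Hdac5 and in that of the inner start of Hdac9, and in 2.72% of all promoters. This core was chosen after the sequences had been seen, so that share is no test of it. The promoters of class IIa genes that hold either are given 5′ to 3′, with TGACG and TATTTTTA in capitals. Matching letters are a description and say nothing of whether a factor binds there.
Hdac4: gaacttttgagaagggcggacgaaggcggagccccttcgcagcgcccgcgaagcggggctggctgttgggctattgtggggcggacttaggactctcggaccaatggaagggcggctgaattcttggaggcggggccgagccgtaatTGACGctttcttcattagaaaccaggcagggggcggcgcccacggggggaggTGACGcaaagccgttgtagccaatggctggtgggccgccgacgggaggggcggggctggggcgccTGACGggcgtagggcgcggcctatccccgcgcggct
Hdac5: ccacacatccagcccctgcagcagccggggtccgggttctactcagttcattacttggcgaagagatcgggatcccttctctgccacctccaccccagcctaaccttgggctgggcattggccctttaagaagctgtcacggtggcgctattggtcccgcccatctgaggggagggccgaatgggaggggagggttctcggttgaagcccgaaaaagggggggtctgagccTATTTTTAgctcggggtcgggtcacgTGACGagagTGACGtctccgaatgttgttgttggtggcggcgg
Hdac9: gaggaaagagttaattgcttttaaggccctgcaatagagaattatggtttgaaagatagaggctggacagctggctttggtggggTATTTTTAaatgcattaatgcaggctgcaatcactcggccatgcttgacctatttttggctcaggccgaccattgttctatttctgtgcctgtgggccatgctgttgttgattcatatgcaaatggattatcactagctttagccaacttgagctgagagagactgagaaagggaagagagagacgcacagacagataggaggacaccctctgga
These are chr1:92180292-92180591, chr11:102230123-102230422 and chr12:34528840-34529139, all on the minus strand. The Hdac4 promoter also belongs to an inner start, at chr1:92180341, since the gene reaches upstream to 92195699. In Hdac4 the TGACG letters begin at -103, -51 and 15 from the start, in Hdac5 at 8 and 17, and TATTTTTA begins at -19 in Hdac5 and at -165 in Hdac9.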

How the data were processed

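The authors sequenced total RNA as 50-base single-end reads on an Illumina HiSeq, with 2 runs per mouse merged before counting. They trimmed with Trim Galore 0.6.4 after FastQC 0.11.8, aligned with STAR 2.6.1 to mm10, kept mapping quality above 10, and counted exons with Rsubread against Ensembl 99. The deposited counts of 12 libraries were read here and no read was realigned. Genes with low counts were removed by filterByExpr, libraries were scaled by TMM, and groups were tested by quasi-likelihood F tests in edgeR 4.0.16 (R 4.3.3), with Benjamini-Hochberg adjustment over all genes tested, a threshold of 0.05 and no fold threshold. DESeq2 1.42.0 was the second tool. Exact tests were run in Python 3.11.15. Members and lists were chosen with earlier results of these data known. A companion gene is named when it was called, or when it had the smallest p of a list without a call, but not every called companion is reported. Genes stand by role.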

Additional observations from a re-analysis of the deposited data

How the results depend on the processing

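Each group holds 3 mice, all counts are from mixed tissue, and the strand setting of the counting is unknown. In SC 968 genes were called, against 1512 with no filter and 399 to 1908 with 1 mouse left out, and 0 to 1 members. In EE 805 were called, against 1296 by DESeq2, 1677 with no filter, 1293 from the fit of all 12 mice and 285 to 1016 with 1 mouse left out. Members called in EE were 0, against 3 by DESeq2, 2 with no filter, 2 from 12 mice and 0 to 1 with 1 mouse left out. DESeq2's size factors called 1 (beside 822 genes), a filter of 1 CPM 1 (883) and halved CBP-ifKO counts 1 (815). Averaged over housing 3082 genes and 6 members were called, against 2459 to 3297 and 3 to 6 with 1 mouse left out. No fit with 1 mouse left out called those same 6 members. For EE in controls the 0 genes became 15 by DESeq2, 145 with no filter, 1 from 6 mice, 1 with counts halved and thinned, and 0 to 5 with 1 mouse left out. For EE in CBP-ifKOs the 2 genes became 50 by DESeq2, 247 with no filter, 21 from 6 mice, 0 with counts halved, 1 with thinning as well, and 0 to 10 with 1 mouse left out, and 1 member was called with no filter. The interaction called 110 genes with no filter. For EE averaged over genotype the 30 genes became 152 by DESeq2, 334 with no filter and 7 to 42 with 1 mouse left out, and members 1 by DESeq2, 1 with no filter and 0 to 1 with 1 mouse left out. Mouse numbers were not taken as pairs. Of 18 pairs with the same number 5 had r above 0.1 (median 0.0338, highest 0.305, against a median of -0.013 over 36 other pairs), although 8 of 12 mice correlated best with a mouse of their own number. A block on that number gave 1041 genes in SC, 1089 in EE, 3374 averaged, 17 for EE in CBP-ifKOs and 48 for EE averaged. Without division by length 2 of 10 members kept their position in the order of levels, and 8 to 10 with 1 mouse left out. Causes of these differences were not tested.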
